A study of Mus musculus with 9 samples.

Results

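The genes described here are 10 regulators of the G1 phase of the cell cycle: the INK4 inhibitors Cdkn2a, Cdkn2b, Cdkn2c and Cdkn2d, the inhibitor Cdkn1b, and the cyclins Ccnd1, Ccnd2, Ccnd3, Ccne1 and Ccne2. They were listed by name as the INK4 and p27 inhibitors and the D and E cyclins, and are 10 of the 48440 genes in the count tables. All 10 matched a single gene identifier, and all 10 passed the filter on low counts. Polyadenylated RNA was sequenced from J1 mouse embryonic stem cells in which Suz12, which belongs to the core of the histone methyltransferase complex PRC2, carries an auxin-inducible degron. The 3 groups hold 3 libraries each. Mock cells (Suz12-AID) carry the treatment label Mock, and Auxin cells (Suz12-AID, treatment Auxin) were kept in 50 µM indole-3-acetic acid for 96 h. Reintroduction cells (Suz12-AID, treatment Re-introduction) had the same 96 h in 50 µM auxin, which was then washed out for 4.5 h. All groups carry the tagged Suz12 and grew in serum medium with LIF, the MEK inhibitor PD0325901 and the GSK3 inhibitor CHIR99021. No untagged cells given auxin were among the libraries analysed here, so the effect of auxin itself and that of Suz12 loss cannot be told apart. The labels call the 3 libraries of a group biological replicates but name no separate culture, clone or day.

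Progress through G1 is driven by cyclin-dependent kinases. D-type cyclins bind CDK4 and CDK6, E-type cyclins bind CDK2, and both complexes phosphorylate the retinoblastoma family of pocket proteins, which releases E2F factors and lets S-phase genes be transcribed. INK4 proteins (p16 and its relatives) block CDK4 and CDK6, whereas p27, the product of Cdkn1b, binds cyclin-CDK complexes and inhibits CDK2. The Cdkn2a and Cdkn2b locus is a classic target of Polycomb repression in differentiated cells, and embryonic stem cells are known for a short G1 phase with high cyclin E.

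The promoter sequences are shown because PRC2 is known to occupy promoters rich in CpG dinucleotides, and because Cdkn2a has a promoter for each of its 2 products while the deposited count holds both together. RefSeq windows (GRCm38.p6) were found for 7 of the 10 genes, 10 windows in all, and none for Ccnd1, Ccnd2 and Ccne2. Each line gives the 250 bases before the annotated start, 5′ to 3′ on the strand of the gene, with every CpG in capitals.
Cdkn2a, distal start (the Arf transcript): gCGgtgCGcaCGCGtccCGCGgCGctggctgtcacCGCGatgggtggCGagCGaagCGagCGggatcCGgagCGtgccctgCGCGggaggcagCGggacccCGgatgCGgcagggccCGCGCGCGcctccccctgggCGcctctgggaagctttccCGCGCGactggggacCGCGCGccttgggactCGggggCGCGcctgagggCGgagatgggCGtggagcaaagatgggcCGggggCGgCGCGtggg
Cdkn2a, proximal start (the p16 transcript): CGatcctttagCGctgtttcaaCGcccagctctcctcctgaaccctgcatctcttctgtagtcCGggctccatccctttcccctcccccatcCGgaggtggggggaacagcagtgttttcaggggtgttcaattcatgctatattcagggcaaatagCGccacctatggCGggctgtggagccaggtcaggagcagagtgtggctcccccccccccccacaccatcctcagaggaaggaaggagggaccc
Cdkn2b: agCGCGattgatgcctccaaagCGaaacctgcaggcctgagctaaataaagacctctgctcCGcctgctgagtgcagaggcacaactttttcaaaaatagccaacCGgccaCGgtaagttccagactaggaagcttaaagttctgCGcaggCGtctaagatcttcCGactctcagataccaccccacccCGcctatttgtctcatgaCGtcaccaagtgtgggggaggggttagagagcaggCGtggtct
Cdkn1b: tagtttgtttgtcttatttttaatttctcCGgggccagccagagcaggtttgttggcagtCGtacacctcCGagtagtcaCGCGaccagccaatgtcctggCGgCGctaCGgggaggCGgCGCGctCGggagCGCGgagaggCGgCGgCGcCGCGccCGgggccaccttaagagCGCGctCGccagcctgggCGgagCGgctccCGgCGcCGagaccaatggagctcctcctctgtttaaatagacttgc
Ccne1: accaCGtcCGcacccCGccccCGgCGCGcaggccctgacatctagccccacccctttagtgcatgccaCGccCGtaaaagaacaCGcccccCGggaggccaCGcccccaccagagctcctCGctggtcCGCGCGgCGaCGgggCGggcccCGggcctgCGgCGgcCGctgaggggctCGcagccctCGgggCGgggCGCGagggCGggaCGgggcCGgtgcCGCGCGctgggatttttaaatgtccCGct
These windows lie at chr4:89294620-89294869 (minus strand), chr4:89282193-89282442 (minus), chr4:89311033-89311282 (minus), chr6:134920151-134920400 (plus) and chr7:38107491-38107740 (minus). The distal Cdkn2a window held 40 CpG, more than 98.7% of the 32851 promoter windows in the table, whose median was 6. The proximal Cdkn2a window held 7, Cdkn2b held 12, Cdkn1b held 28 and Ccne1 held 34. Of the windows not shown, those of Cdkn2c held 29 and 6, that of Cdkn2d 16 and those of Ccnd3 11 and 19. An E2F word (TTTCCCGC, TTTCGCGC, TTTGCCGC or TTTGGCGC, on either strand) was found in 1 of the 10 windows, the distal one of Cdkn2a, and in 1.86% of all windows. Such a match is a description of the letters only.

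The libraries held between 44341283 and 113931419 counts, with both mates of a pair counted. Marker genes of embryonic stem cells were expressed in every group: the 10 markers summed to 6100 to 6261 CPM over the Mock libraries, 6958 to 7490 over Auxin and 5670 to 5808 over Reintroduction. Single markers moved both ways: from Mock to Auxin, 6 of the 10 rose and 4 fell in the edgeR test. Sox2 rose from 374.1 to 749.3 CPM and Klf4 from 334.5 to 583.7 CPM. Lin28a fell from 465.1 to 131.8 CPM and Pou5f1 from 843.5 to 582.9 CPM. Markers of each other cell type summed to less than the stem cell markers in every group, and these sums moved with the groups. The 6 primitive endoderm markers were all called higher in Auxin than in Mock, as were 38.4% of all genes tested. Their sums were 5.15 to 6.67 CPM in Mock, 21.4 to 22.4 in Auxin and 13.6 to 15.3 in Reintroduction. Of the 6, 2 were under 1 CPM in every library. In Reintroduction against Mock, 3 were called higher, 1 lower (Gata6, log2 fold change -1.06) and 2 were not called. Of all genes, 34.7% were higher and 33.4% lower there. The 6 trophoblast markers summed to 62.6 to 65.7 CPM in Mock, 107.6 to 118.7 in Auxin and 109.5 to 115.2 in Reintroduction, and the 8 fibroblast markers, of which 6 were under 1 CPM in every library, to 22.0 to 24.6, 44.2 to 53.5 and 41.0 to 42.3 CPM in that order. From Mock to Auxin the trophoblast sum followed Tfap2c, which rose from 27.2 to 86.6 CPM. Eomes fell from 35.4 to 25.6 CPM and Cdx2 from 1.70 to 0.082 CPM. The sum did not follow Tfap2c in Reintroduction, where that gene had 44.95 CPM. Eomes was called higher there than in Auxin (log2 fold change 1.38) and than in Mock (0.92). The fibroblast sum followed Thy1, which rose from 17.93 to 41.21 CPM from Mock to Auxin, while Col1a1 fell from 0.418 to 0.1517 CPM. Only 4 of the 8 fibroblast markers were tested: 2 rose, 1 fell and 1 was not called. The 6 neural markers (Neurog2 at 0 counts throughout) summed to 113.0 to 123.1 CPM in Mock, 81.5 to 97.9 in Auxin and 80.5 to 83.1 in Reintroduction, and the 6 mesoderm markers to 11.3 to 11.9, 2.73 to 3.15 and 3.79 to 5.32 CPM. The mesoderm sum followed T, which fell from 9.82 to 0.255 CPM from Mock to Auxin, while Kdr rose from 0.83 to 1.95 CPM. The part of such markers in the results below was not tested. In bulk RNA, fewer cells of a type and less RNA per cell cannot be told apart.

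Between Auxin and Mock, the 5 cyclins fell and the inhibitors went in different directions. In the edgeR quasi-likelihood test with Benjamini-Hochberg adjustment over 20838 genes, 9 of the 10 genes were called at an adjusted p-value under 0.05, 2 higher (Cdkn1b and Cdkn2c) and 7 lower (all 5 cyclins, Cdkn2a and Cdkn2d). Of all genes tested, 73.2% were called, 38.4% higher and 34.8% lower, so the number called says little about these genes. The median log2 fold change of the 10 was -0.84, against 0.05 for all genes tested. Between Reintroduction and Auxin, all 5 cyclins, Cdkn2a and Cdkn2b rose while Cdkn1b and Cdkn2c fell. Those 9 calls compare with 50.9% of all genes (25.5% in each direction), and the median of the 10 genes was 0.79, against 0.003 for all genes. Between Reintroduction and Mock, 4 genes were called higher (Cdkn2b, Cdkn2c, Cdkn1b and Ccne2) and 4 lower (Cdkn2a, Cdkn2d, Ccnd1 and Ccne1), while 68.1% of all genes were called, 34.7% higher and 33.4% lower. The libraries of the groups did not overlap for 9, 9 and 8 of the 10 genes in the 3 comparisons, against 74.3%, 58.2% and 75.2% of all genes. The comparisons share libraries, so a high or low Auxin value enters both the fall and the return.

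**Figure D1:**
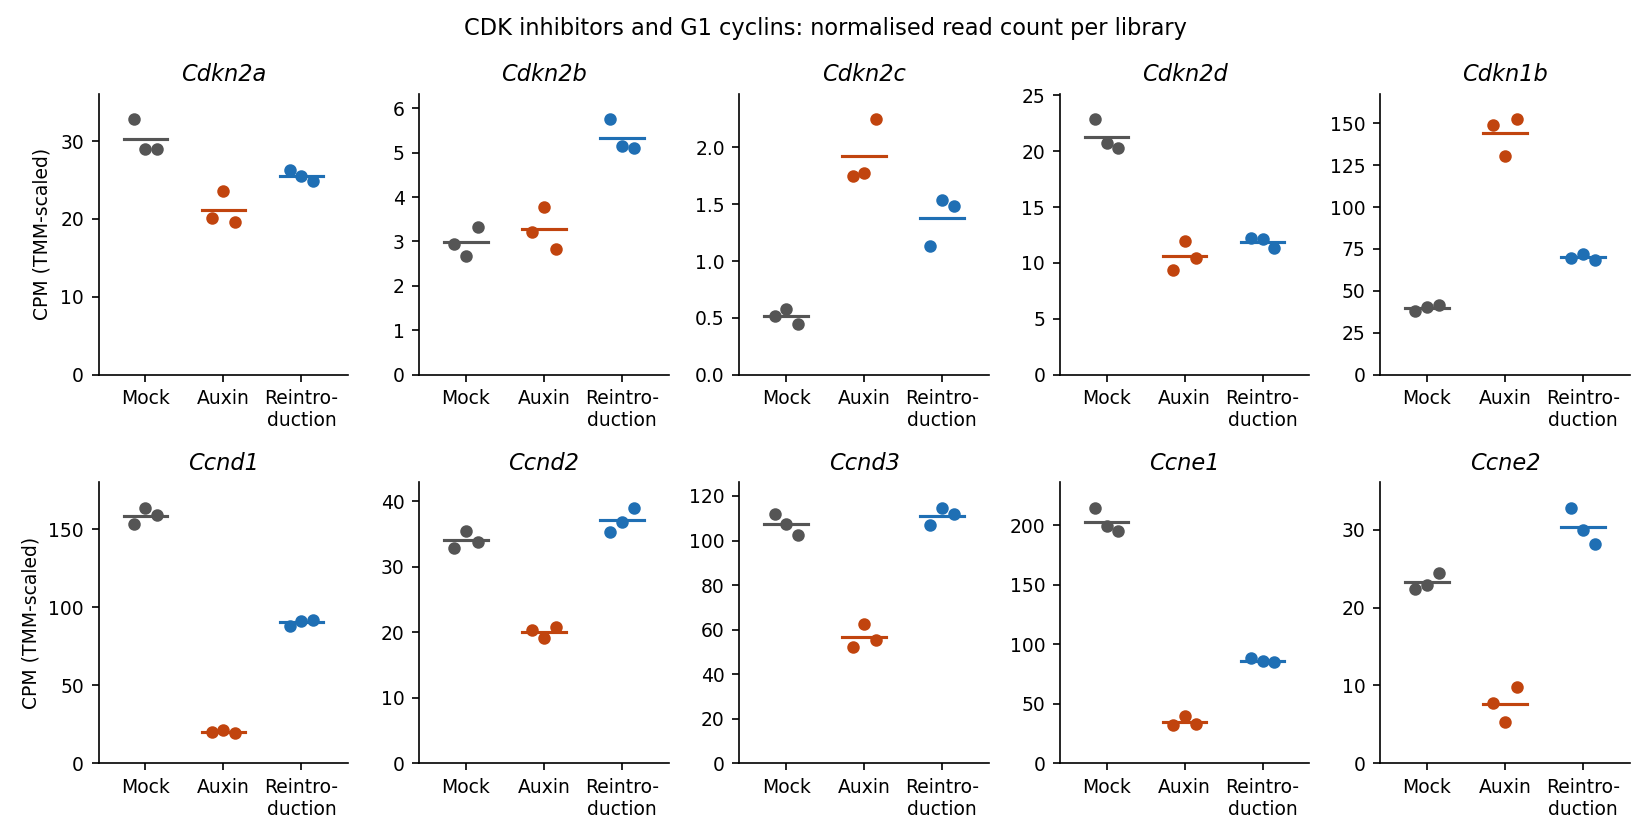
Normalised read count (CPM, TMM-scaled, axis from 0) of the 10 genes in each of the 9 libraries. Points are libraries and lines are group means (n = 3 each). Each cyclin has its lowest 3 values in Auxin, and Cdkn1b and Cdkn2c have their highest 3 there.

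Ccnd1 encodes cyclin D1, a mitogen-responsive partner of CDK4 and CDK6, and had the largest log2 fold change of the 10 genes from Mock to Auxin. Its level was 153, 164 and 159 CPM in the Mock libraries, 19.7, 21.1 and 19.4 CPM in the Auxin libraries, and 88.1, 91.2 and 91.9 CPM in the Reintroduction libraries. The 3 groups did not overlap, and Reintroduction lay between the other two. Ccnd1 was 7.91-fold lower in Auxin than in Mock (log2 fold change -2.98, SE 0.057, edgeR adjusted p = 6.73e-11), and 0.777% of all genes tested had a lower log2 fold change. It was 4.5-fold higher in Reintroduction than in Auxin (2.17, SE 0.055, adjusted p = 6.33e-10) and 1.76-fold lower in Reintroduction than in Mock (-0.81, SE 0.052, adjusted p = 2.26e-07). The gene lies at chromosome 7, 144929931 to 144939925 (mm10), and 23.4% of its exon bases are shared with LTO1 on the other strand. Reads in such bases are left out of a count by default, since they fall in 2 genes.

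Ccnd2 and Ccnd3 encode cyclins D2 and D3, which bind the same kinases. Ccnd2 had 32.9, 35.6 and 33.8 CPM in the Mock libraries, 20.3, 19.1 and 20.9 in Auxin, and 35.4, 36.9 and 39.1 in Reintroduction. Ccnd3 had 111.7, 107.4 and 102.7 CPM in the Mock libraries, 52.3, 62.7 and 55.1 in Auxin, and 107.0, 114.8 and 111.8 in Reintroduction. For both genes the Auxin libraries lay below all others, and the Mock and Reintroduction libraries overlapped. In Auxin against Mock, Ccnd2 was 1.70-fold lower (log2 fold change -0.76, SE 0.061, edgeR adjusted p = 5.51e-07). Ccnd3 was 1.89-fold lower (-0.92, SE 0.070, adjusted p = 3.33e-07). Both rose in Reintroduction against Auxin, Ccnd2 by 0.89 and Ccnd3 by 0.97 on the log2 scale (edgeR adjusted p = 7.01e-07 and 8.91e-07). In Reintroduction against Mock the log2 fold change was 0.12 for Ccnd2 (95% interval -0.01 to 0.26, edgeR adjusted p = 0.0915) and 0.05 for Ccnd3 (-0.10 to 0.20, adjusted p = 0.515). Neither passed the threshold, and neither sign was stable: after a length and GC adjustment, which takes the trend over gene length and base composition out of each library, the values were -0.23 (called lower) and -0.11. With total counts in place of TMM scaling both were called higher (0.25 and 0.18). The processed pseudogene Ccnd3-ps, a copy of the Ccnd3 transcript elsewhere in the genome, held between 2021 and 6240 counts per library, so reads may be split between the copies. With its counts added to Ccnd3, an alternative chosen after seeing the data, the 3 log2 fold changes of Ccnd3 were -0.93, 0.95 and 0.02.

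Ccne1 and Ccne2 encode cyclins E1 and E2, the partners of CDK2 at the G1/S transition. Ccne1 had 215, 199 and 196 CPM in the Mock libraries, 32.4, 39.5 and 32.8 in the Auxin libraries, and 88.3, 85.6 and 85.0 in the Reintroduction libraries. The groups did not overlap, and Reintroduction lay between Auxin and Mock. Ccne1 was 5.83-fold lower in Auxin than in Mock (log2 fold change -2.54, SE 0.080, edgeR adjusted p = 5.39e-10), and 1.25% of all genes had a lower log2 fold change. It was 2.47-fold higher in Reintroduction than in Auxin (1.31, SE 0.077, adjusted p = 2.05e-07) and 2.36-fold lower in Reintroduction than in Mock (-1.24, SE 0.076, adjusted p = 1.61e-07).

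Ccne2 had 22.4, 23.0 and 24.5 CPM in the Mock libraries, 7.74, 5.26 and 9.80 in Auxin, and 32.9, 30.0 and 28.2 in Reintroduction. The Auxin libraries spread more than those of the other groups, with replicate 2 lowest. That library also differed from the other Auxin libraries in its trend over gene length (a slope of 0.013 log2 CPM per doubling of length, against 0.149 and 0.154), and the part of this in the spread was not tested. The Reintroduction libraries lay above all Mock libraries. It was 3.07-fold lower in Auxin than in Mock (log2 fold change -1.62, SE 0.17, edgeR adjusted p = 4.49e-06) and 4.0-fold higher in Reintroduction than in Auxin (2.00, SE 0.17, adjusted p = 2.91e-06). In Reintroduction against Mock its log2 fold change of 0.38 (SE 0.16, edgeR adjusted p = 0.0498) was close to the threshold, and it was not called in 12 of 20 alternatives, among them leaving out any 1 Mock library (0.36, 0.38 and 0.42), any 1 Reintroduction library (0.32, 0.39 and 0.42) or Auxin replicate 1 (0.38). After the length and GC adjustment the value was -0.09. Of its exon bases, 17.4% are shared with Ints8.

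**Figure D2:**
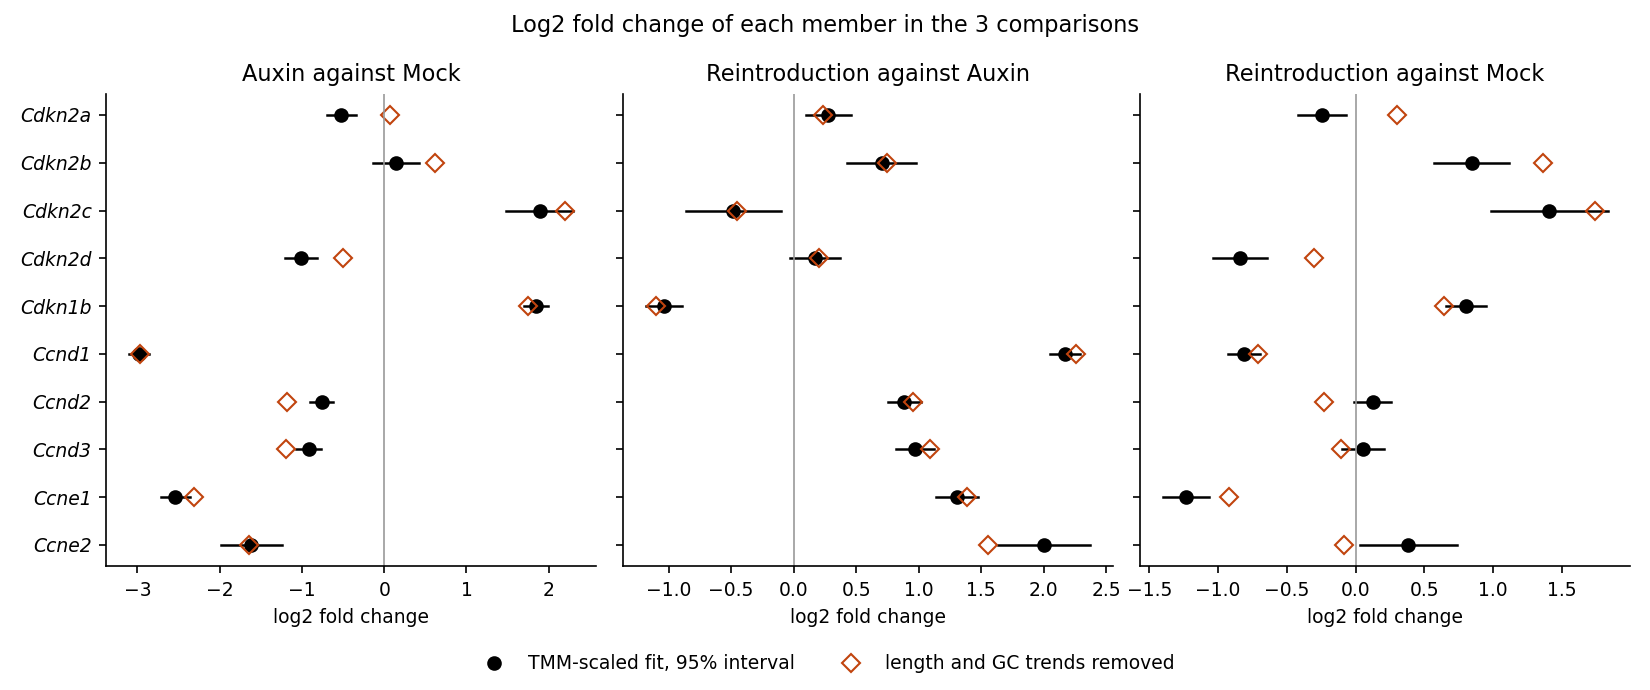
Log2 fold change of the 10 genes in the 3 comparisons. Filled points with bars are the TMM-scaled edgeR fit with its 95% interval, and open diamonds are the fit after the length and GC adjustment. In Auxin against Mock the 5 cyclins are to the left of 0 in both fits, while Cdkn2a moves from -0.52 to 0.07.

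Cdkn1b, which encodes p27, changed in the direction opposite to the cyclins. It had 38.3, 40.4 and 41.4 CPM in the Mock libraries, 148.9, 130.4 and 152.5 in the Auxin libraries, and 69.7, 72.1 and 68.2 in the Reintroduction libraries. The 3 groups did not overlap. Cdkn1b was 3.60-fold higher in Auxin than in Mock (log2 fold change 1.85, SE 0.067, edgeR adjusted p = 1.32e-09), 2.06-fold lower in Reintroduction than in Auxin (-1.04, SE 0.066, adjusted p = 3.41e-07), and 1.75-fold higher in Reintroduction than in Mock (0.81, SE 0.066, adjusted p = 1.25e-06). In Auxin against Mock, 8.94% of all genes tested had a higher log2 fold change. The gene lies at chromosome 6, 134920401 to 134925513, and shares no exon base with another gene.

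The 4 INK4 genes did not move as 1 group. Cdkn2a produces p16 and, from a second reading frame, the p53 activator Arf, and its count holds both. It had 32.8, 29.0 and 29.0 CPM in the Mock libraries, 20.1, 23.6 and 19.6 in Auxin, and 26.3, 25.5 and 24.9 in Reintroduction. The Auxin libraries were the lowest and no groups overlapped. Cdkn2a was 1.44-fold lower in Auxin than in Mock (log2 fold change -0.52, SE 0.080, edgeR adjusted p = 1.15e-04), a value within the middle of the range of all genes, 26.4% of which had a lower one. It was 1.21-fold higher in Reintroduction than in Auxin (0.28, adjusted p = 0.0141) and 1.19-fold lower in Reintroduction than in Mock (-0.24, adjusted p = 0.0181). The call against Auxin was lost without Auxin replicate 1 (0.24), Auxin replicate 3 (0.23) or Reintroduction replicate 1 (0.26), and that of Reintroduction against Mock without Mock replicate 1 (-0.18) or under total counts (-0.11). Cdkn2a has a short exon length of 1172 bp and a GC fraction of 0.602 in its longest transcript. The tested protein-coding genes in the decile of shortest exon length (median 1131 bp) had a median log2 fold change of -0.42 in Auxin against Mock, and those in the decile of longest (median 11440 bp) 0.62. This trend differs between Mock and the other groups in every library, so trend and group cannot be told apart. After the length and GC adjustment, the Auxin against Mock value of Cdkn2a was 0.07 (edgeR adjusted p = 0.132) and the Reintroduction against Mock value was 0.31, called higher. The direction of Cdkn2a against Mock thus depended on that adjustment.

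**Figure D3:**
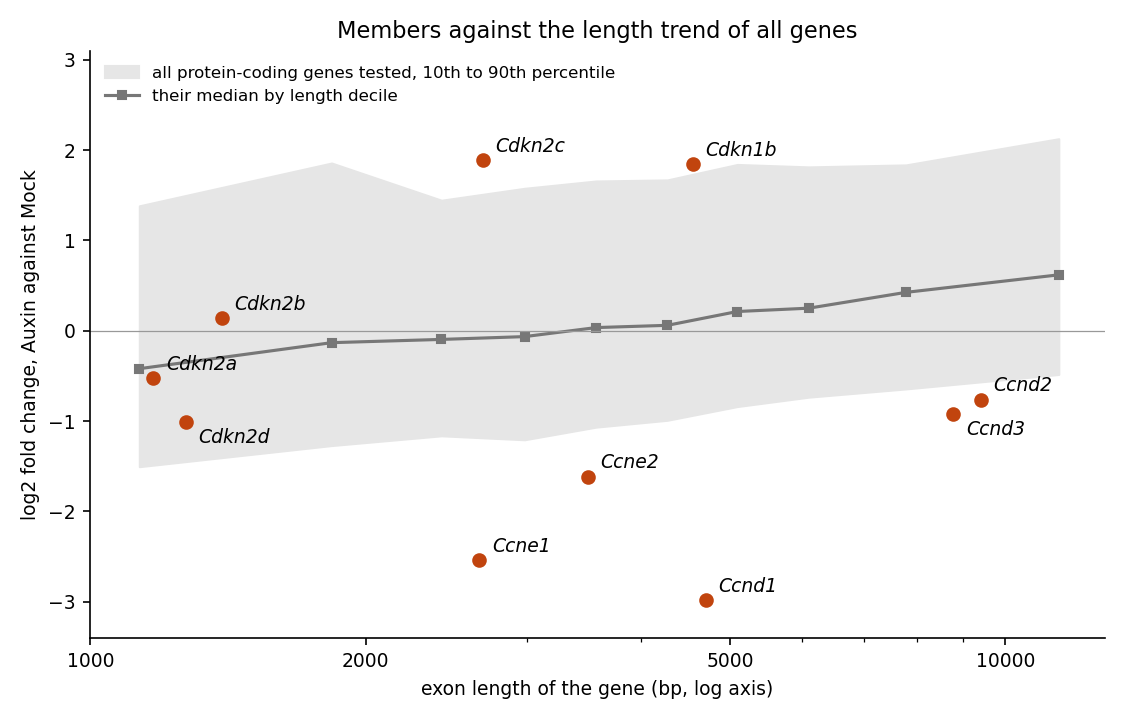
Log2 fold change in Auxin against Mock (vertical axis) against exon length in bp (horizontal, log axis) for the 10 genes. The grey line gives the median of all tested protein-coding genes by decile of length, and the band their 10th to 90th percentile. Cdkn2a lies near the line, while Ccnd1, Ccne1, Ccne2, Ccnd2 and Ccnd3 lie below the band and Cdkn1b and Cdkn2c above it.

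Cdkn2b encodes p15 and lies 24.1 kb from Cdkn2a, between midpoints. It had 2.94, 2.67 and 3.33 CPM in the Mock libraries, 3.22, 3.78 and 2.83 in Auxin, and 5.76, 5.14 and 5.10 in Reintroduction. Mock and Auxin libraries overlapped, and the Reintroduction libraries lay above all others. Auxin against Mock gave a log2 fold change of 0.14 (95% interval -0.14 to 0.42, edgeR adjusted p = 0.332) and did not pass. It was called higher under total counts (0.35) and after the length and GC adjustment (0.62), which also moved the median of all genes from 0.05 to 0.26 and 0.24. In Reintroduction, Cdkn2b was 1.63-fold higher than in Auxin (0.70, SE 0.13, edgeR adjusted p = 7.34e-04) and 1.80-fold higher than in Mock (0.84, SE 0.13, adjusted p = 1.15e-04). Of the 10 genes it was the one whose Reintroduction libraries stood apart from both other groups while those 2 groups overlapped.

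Cdkn2c, which encodes p18, was the lowest of the 10 genes. It had 53, 48 and 32 counts in the Mock libraries (0.514, 0.579 and 0.448 CPM), 143, 135 and 154 in the Auxin libraries (1.74, 1.77 and 2.25 CPM), and 90, 69 and 121 in the Reintroduction libraries (1.13, 1.54 and 1.48 CPM). All Auxin libraries lay above all Reintroduction libraries, and these above all Mock libraries. It was 3.71-fold higher in Auxin than in Mock (log2 fold change 1.89, SE 0.19, edgeR adjusted p = 2.90e-06) and 2.66-fold higher in Reintroduction than in Mock (1.41, SE 0.19, adjusted p = 6.03e-05). The fall in Reintroduction against Auxin (-0.48, SE 0.17, adjusted p = 0.0361) was lost without Auxin replicate 3 (-0.36), Reintroduction replicate 1 (-0.35) or Reintroduction replicate 3 (-0.56), and after the length and GC adjustment (-0.45).

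Cdkn2d, which encodes p19INK4d, had 22.9, 20.7 and 20.3 CPM in the Mock libraries, 9.38, 12.0 and 10.4 in Auxin, and 12.2, 12.1 and 11.3 in Reintroduction. Mock lay above the other groups, which overlapped each other. It was 2.01-fold lower in Auxin than in Mock (log2 fold change -1.01, SE 0.090, edgeR adjusted p = 1.25e-06) and 1.79-fold lower in Reintroduction than in Mock (-0.84, SE 0.090, adjusted p = 9.25e-06). Both were also called after the length and GC adjustment, at -0.50 and -0.30. The change between Reintroduction and Auxin was 0.17 (95% interval -0.03 to 0.37, adjusted p = 0.15), and it passed when Auxin replicate 2 was left out (0.27) or after the length and GC adjustment (0.20).

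Ratios of counts between 2 genes of the same library do not depend on how libraries are scaled, though trends of length and GC can still enter them. The ratio of Ccnd1 to Ccnd3 counts was 1.37, 1.53 and 1.55 in the Mock libraries, 0.377, 0.338 and 0.351 in the Auxin libraries, and 0.823, 0.794 and 0.821 in Reintroduction. The ratio of Ccne1 to Ccne2 counts was 9.62, 8.67 and 7.98 in the Mock libraries, 4.18, 7.51 and 3.35 in the Auxin libraries, and 2.68, 2.85 and 3.01 in Reintroduction. The ratio of Cdkn1b to Ccne1 counts, an inhibitor set against a cyclin it binds, was 0.178, 0.203 and 0.212 in the Mock libraries, 4.6, 3.30 and 4.65 in the Auxin libraries, and 0.789, 0.843 and 0.802 in Reintroduction. For each of the 3 ratios no groups overlapped, and the exact two-sided permutation test gave p = 0.1 in every comparison, the smallest that 3 libraries against 3 allow. The Ccnd1 to Ccnd3 ratio was lowest in the Auxin libraries, and the Ccne1 to Ccne2 ratio was lowest in the Reintroduction libraries.

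**Figure D4:**
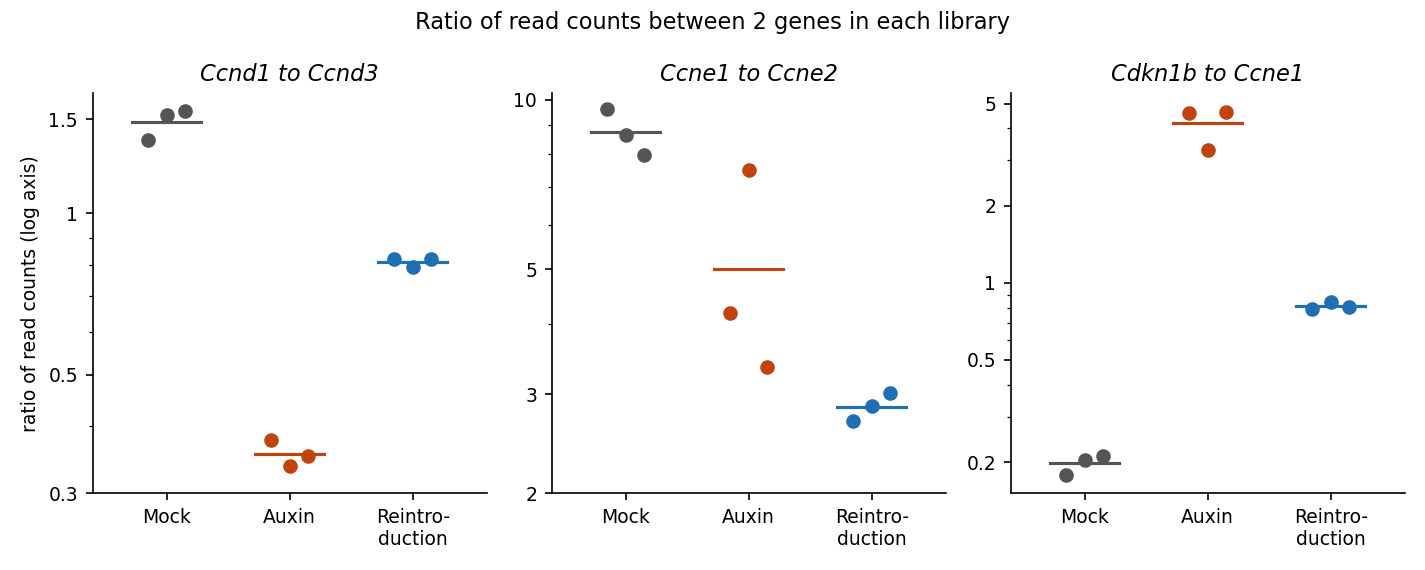
Ratio of read counts between 2 genes in each of the 9 libraries (vertical log axes). Points are libraries and lines are group means (n = 3). The Cdkn1b to Ccne1 ratio is between 0.178 and 0.212 in Mock and between 3.30 and 4.65 in Auxin, with Reintroduction between them.

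Levels between genes were compared as CPM per kb of exon length. In Mock, Ccne1 was highest at 76.4 ± 3.88 CPM per kb (mean ± SD, n = 3), followed by Ccnd1 at 33.7 ± 1.14, Cdkn2a at 25.8 ± 1.89, Cdkn2d at 16.8 ± 1.1, Ccnd3 at 12.2 ± 0.51, Cdkn1b at 8.80 ± 0.35, Ccne2 at 6.66 ± 0.32, Ccnd2 at 3.62 ± 0.14, Cdkn2b at 2.14 ± 0.24 and Cdkn2c at 0.191 ± 0.025. Neighbours in that order differed by more than their SDs. In Auxin the order changed: Cdkn1b was highest at 31.6 ± 2.61 CPM per kb, then Cdkn2a at 18.0 ± 1.88 and Ccne1 at 13.1 ± 1.5, while Ccnd1 had 4.26 ± 0.20. Cdkn2b, Ccne2 and Ccnd2 (2.35 ± 0.34, 2.18 ± 0.65 and 2.13 ± 0.099 CPM per kb) did not differ there beyond their SDs. In Reintroduction Ccne1 was again highest at 32.4 ± 0.65 CPM per kb, followed by Cdkn2a at 21.8 ± 0.58 and Ccnd1 at 19.2 ± 0.43. The place of Ccnd3 depends on the length used, since its annotated exons span 8775 bp while its longest coding transcript has 2113 bases. With each gene's longest coding transcript as the length, Ccnd3 was second to Ccne1 in Mock (50.8 against 101.6 CPM per kb) and above it in Reintroduction (52.6 against 43.1). In Auxin it was then second to Cdkn1b (26.8 against 31.6), above Cdkn2a at 23.6 and Ccne1 at 17.4. Ccnd2, Ccne2 and Cdkn2b had 3.17, 2.53 and 2.36 there. The exon lengths include bases shared with other genes, 23.4% of them for Ccnd1 and 17.4% for Ccne2.

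The other genes of the pathway were taken from 7 lists of 56 genes, all of them tested. Of these, 15 rose and 37 fell from Mock to Auxin, and the median log2 fold change was -0.75, while 38.4% of all genes tested rose and 34.8% fell. From Auxin to Reintroduction 31 rose and 10 fell (median 0.22), with 25.5% of all genes in each direction. Against Mock, 12 were higher and 32 lower in Reintroduction (median -0.34), with 34.7% and 33.4% of all genes. The 3 G1 kinases fell in Auxin against Mock: Cdk2 by 1.02 (SE 0.052), Cdk4 by 0.50 (SE 0.070) and Cdk6 by 1.33 (SE 0.071) on the log2 scale (edgeR adjusted p = 1.45e-08, 5.79e-05 and 2.04e-08). In Reintroduction against Auxin, Cdk6 rose by 0.89 and Cdk2 by 0.26, while Cdk4 had a log2 fold change of -0.18 (edgeR adjusted p = 0.0472). That call of Cdk4 was lost in 12 alternatives, DESeq2 size factors and the DESeq2 Wald test (-0.18 in each) among them. All 3 kinases were still called lower in Reintroduction than in Mock (-0.77, -0.68 and -0.44 for Cdk2, Cdk4 and Cdk6).

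The genes of the pocket proteins, which restrain E2F, rose in Auxin against Mock. Rb1 rose from 4.04 ± 0.28 to 12.5 ± 2.20 CPM (mean ± SD, n = 3 each; log2 fold change 1.63, edgeR adjusted p = 4.76e-07), Rbl1 by 0.71 and Rbl2 by 0.57 on the log2 scale. In Reintroduction against Auxin the values were -0.18 for Rb1 and -0.09 for Rbl1, neither called, and Rbl2 was called lower (-0.39). The other CIP/KIP inhibitors differed from each other. Cdkn1a, a p53 target that encodes p21, rose from 110.6 ± 3.67 CPM in Mock to 207.2 ± 22.1 in Auxin (0.91, edgeR adjusted p = 4.25e-07) and had 108.8 ± 0.88 in Reintroduction. Cdkn1c, which encodes p57 and is imprinted, fell from 5.45 ± 0.49 CPM in Mock to 1.17 ± 0.42 in Auxin (-2.20, edgeR adjusted p = 3.83e-06), with 0.957 ± 0.21 in Reintroduction.

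Of 10 genes for E2F factors and their DP partners, 2 rose and 7 fell from Mock to Auxin (median log2 fold change -0.81). E2f8 (-1.29), E2f4 (-1.16) and E2f2 (-1.28) had the smallest p-values of the list. In Reintroduction against Auxin 9 of the 10 rose, among them E2f2 (1.27), E2f8 (0.68) and E2f7 (0.64). In Reintroduction against Mock 3 were higher and 4 lower, with E2f4 at -0.70, E2f6 at 0.69 and E2f5 at 0.59. Of 18 genes of S-phase entry, most of them known E2F targets, 17 fell and 0 rose from Mock to Auxin (edgeR; the 1 gene not called had a log2 fold change of -0.04, and the median was -0.88). Tk1, the thymidine kinase, fell by 2.63 and the licensing factor Cdc6 by 2.05 on the log2 scale. In Reintroduction against Auxin 13 rose and 0 fell, with Cdc6 at 1.36, Tk1 at 1.2 and the ribonucleotide reductase subunit Rrm2 at 1.00, and 17 were still called lower than in Mock, with Tk1 at -1.43 and Orc1 at -0.90. For comparison, 34.8% of all genes were called lower in Auxin against Mock, 25.5% higher in Reintroduction against Auxin and 33.4% lower in Reintroduction against Mock.

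**Figure D5:**
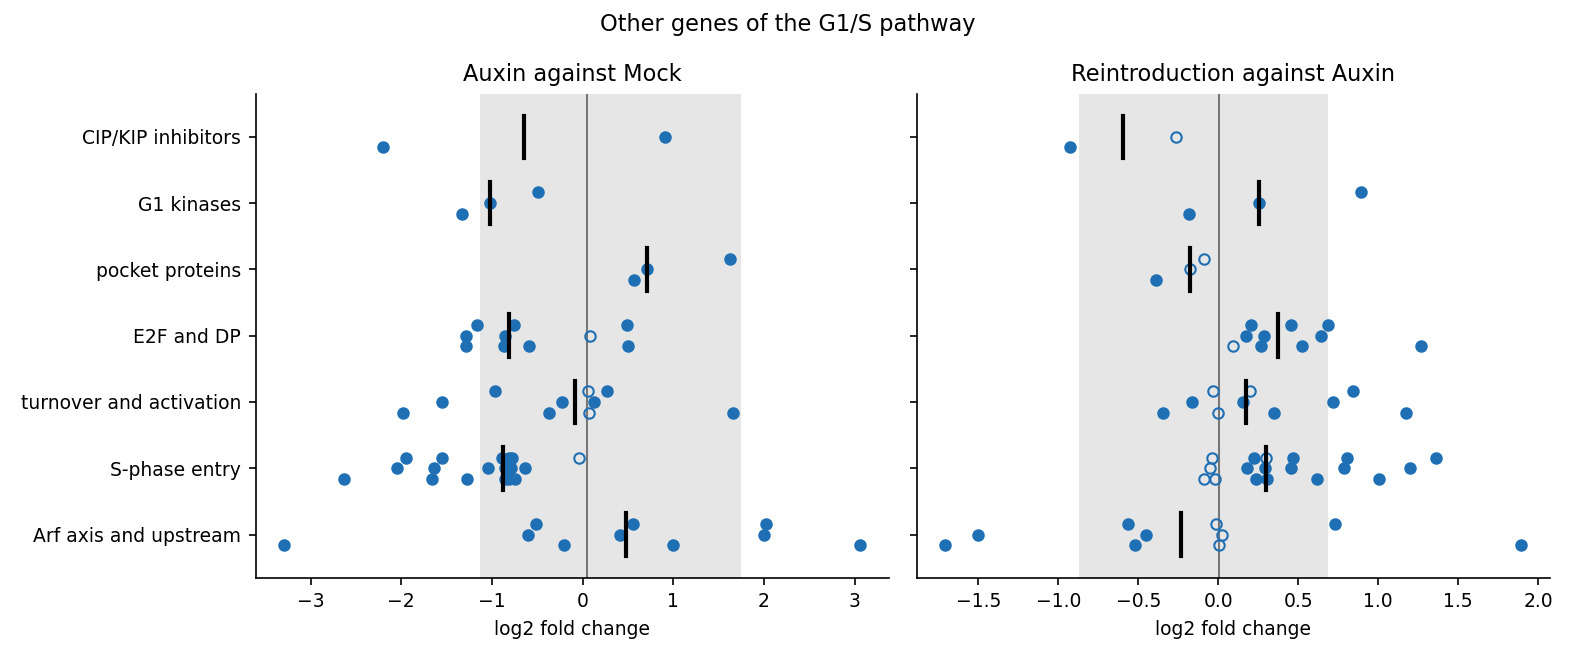
Log2 fold change of the other pathway genes by list in Auxin against Mock and Reintroduction against Auxin. Filled points passed the test and open points did not, black bars are list medians, the grey line is the median and the band the 10th to 90th percentile of all genes tested. The genes of S-phase entry have a median of -0.88 in the first comparison and 0.30 in the second.

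Of 10 genes for turnover and activation of the complexes, 3 rose and 5 fell from Mock to Auxin, near the shares of all genes (38.4% and 34.8%). The phosphatase Cdc25a, which activates CDK2, fell by 1.98, Skp2, the ligase subunit that targets p27 for degradation, by 0.97, and its cofactor Cks1b by 1.55 on the log2 scale. All 3 rose from Auxin to Reintroduction (1.17, 0.84 and 0.72). In Reintroduction against Mock the smallest p-values were those of Cdc25a (-0.81), Fbxo4 (1.32), a ligase subunit linked to cyclin D1 turnover, and Cks1b (-0.83). Of 10 genes of the Arf axis and upstream factors, 6 rose and 4 fell from Mock to Auxin, where 38.4% of all genes rose and 34.8% fell. Myc fell from 67.2 ± 4.65 to 6.87 ± 0.46 CPM (log2 fold change -3.29, edgeR adjusted p = 2.09e-10). Tbx3 rose by 1.00, and Bmi1, a Polycomb repressive complex 1 subunit known as a repressor of Cdkn2a, rose by 2.00 on the log2 scale. In Reintroduction against Auxin, 2 of the 10 rose and 5 fell (median log2 fold change -0.23), with 25.5% of all genes in each direction. Myc rose by 1.90 and Mycn by 0.73, and Mdm2 fell by 0.57. In Reintroduction against Mock, Myc was at -1.40, Bmi1 at 1.55 and Tbx3 at 0.48.

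Around Cdkn2a, 32 other genes had their midpoint within 500 kb, and 4 of them were expressed enough to be tested: Mtap, Cdkn2b, the noncoding Gm12609 and Dmrta1. Mtap, a methionine salvage enzyme 125.5 kb away, fell from 118.1 ± 0.82 CPM in Mock to 56.3 ± 2.75 in Auxin (log2 fold change -1.07, edgeR adjusted p = 1.84e-08) and rose to 90.8 ± 4.65 in Reintroduction (0.69, adjusted p = 2.22e-06). Gm12609 and Dmrta1 were called higher in Auxin than in Mock (2.05 and 2.32) at levels under 1 CPM.

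Of all tested genes, those with the profile most like Cdkn2a over the 9 libraries, by Pearson correlation of log2 CPM, were Eif4a1 (r = 0.998), Adrm1 (0.996) and Rhof (0.994). For Ccnd1 they were Gspt1 (0.999), the processed pseudogene Hspd1-ps3 (0.999) and Axin2 (0.999). The points are 9 libraries in 3 groups, and 813 genes for Cdkn2a and 1008 for Ccnd1 had an r over 0.95, so the likeness is a description of group levels.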

How the data were processed

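Raw read counts per gene were deposited by the authors for 9 libraries, without normalization. Per the file headers, featureCounts 2.0.6 summed exonic reads to genes of an mm10 annotation in paired-end mode, with no strand setting and with mates counted singly. The submitters' processing notes also list Trim Galore 0.6.10, Bowtie2 2.5.3 and SAMtools 1.20. Bowtie2 does not split reads at introns, so if it made the alignments, reads across exon junctions may be lost or placed on processed pseudogenes. Symbols were matched for 48058 of 48440 genes, and GC content came from GENCODE M21 transcripts.

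All 9 libraries entered 1 edgeR 4.0.16 quasi-likelihood fit (R 4.3.3) on the 20838 genes that passed filterByExpr, with TMM factors (0.905 to 1.08) and group as the only term. P-values were two-sided and adjusted by Benjamini-Hochberg over all genes tested, with calls under 0.05. Folds come from the fitted log2 values. CPM values are TMM-scaled. Each p-value sets a difference between groups against the spread between libraries, which the labels do not trace to separate cultures. On simulated counts for the 20838 genes with 200 changed 2-fold, the fit recovered 75.0%, 74.5% and 73.5% in Auxin against Mock, Reintroduction against Auxin and Reintroduction against Mock. Of the calls made there, 5.7%, 6.3% and 3.9% fell on unchanged genes, in the same order. Alternatives covered scaling (DESeq2 1.42.0 size factors, total counts), filters, the DESeq2 Wald test, 2-group fits, a replicate block, length and GC trends removed through per-library offsets (splines with 5 degrees of freedom), halved counts and each library left out. The genes and lists were chosen with earlier results of these data known. All 10 genes are named, with all kinases, CIP/KIP and pocket protein genes, and in each longer list the 3 called genes with the smallest p-value, except 1 gene that is not reported here. For Cdkn2a and Ccnd1, the 3 most correlated genes (log2 CPM, prior count 2) are named.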

Additional observations from a re-analysis of the deposited data

How the results depend on the processing

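For 21 of the 30 values (10 genes in 3 comparisons), direction and call were the same under every alternative run that refits the gene. These include Ccnd1, Ccne1 and Cdkn1b in each comparison. Requiring a fold change of at least 2 left 6, 4 and 2 of the 10 genes (Auxin against Mock, then Reintroduction against Auxin and against Mock), 6625, 2289 and 4664 of all genes, and 22, 8 and 7 of the pathway genes. With length and GC trends removed, Cdkn2a was at 0.072 in Auxin against Mock and 0.31 in Reintroduction against Mock (0.21 with the length trend alone). In Reintroduction against Mock the same 2 settings gave Ccnd2 -0.23 and -0.28, Ccnd3 -0.11 and -0.31, Cdkn1a 0.36 and 0.24 and Rbl2 -0.07 and -0.10, and the first gave Ccne2 -0.086. Cdkn1a was at 0.11 under total counts there. Rbl1 was at 3.4e-04 in Reintroduction against Auxin without Auxin replicate 3. The cause of these changes was not tested.

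Total counts raised the share of higher among called genes in Auxin against Mock from 52.4% to 63.2%, and removing length and GC trends raised it to 61.5% there and from 50.9% to 61.9% in Reintroduction against Mock. Among the 10 genes, total counts gave 6 higher and 3 lower in Reintroduction against Mock, and the trend removal gave 3 higher and 6 lower in Auxin against Mock. Leaving out a library gave between 9 and 9, 7 and 10, and 6 and 9 called members in the 3 comparisons. The labels do not say whether same-numbered libraries are paired. Same-numbered libraries of different groups had deviations from their group means that correlated between -0.17 and 0.06. Differently numbered libraries ranged from -0.18 to 0.24. With 3 libraries a group, these values cannot decide whether the libraries are paired. With the number as a replicate block, 9, 9 and 7 of the 10 genes were called, and Ccne2 lost its call in Reintroduction against Mock (0.39). With the block and both trends removed, Cdkn2a was at 0.072 and 0.31, Ccnd2 at -0.23, Ccnd3 at -0.11, Ccne2 at -0.088, Cdkn1a at 0.36 and Rbl2 at -0.072 in the comparisons named above. Cdkn2c had the fewest counts of the 10 genes, 32 to 53 in Mock, and its calls were the same with all counts halved.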
